A study of Mus musculus with 24 samples.

Results

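The prefrontal cortex (PFC) of mice with an active coping strategy (AS) was compared with the PFC of control mice, both collected 6 h after an injection of dexamethasone (DEX). The comparison held 8 of the 24 libraries of the series, 4 AS and 4 control animals with 1 library each, and all 14074 genes of the deposited table were tested. Every animal was a male C57BL/6 mouse that had received 2 mg/kg DEX. AS animals had gone through 30 days of chronic social defeat, in which a mouse meets an aggressive male every day, and had been assigned to the active class near the end of that time, by how they behaved while the aggressor was close but not attacking, so AS is a behavioural class within stressed males and not a separate treatment. Control animals had not been defeated. The libraries called AS here are named dep2 in the sample labels, and those of the passive coping class (PS) dep1. Each tissue block joined several areas of the frontal cortex, and every level below is a mean over the cells of such a block, in which fewer cells of a type and less RNA per cell cannot be told apart.

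DEX is a synthetic agonist of the glucocorticoid receptor, a hormone-activated transcription factor that neurons, glia and vessel cells all carry. Brain vessels are lined by endothelial cells joined by tight junctions, which carry glucose and amino acids inwards on dedicated transporters and pump drugs outwards. Mural cells, the pericytes and smooth muscle cells, wrap the endothelium and share a basement membrane of collagens and laminins with it. The vessel wall is one of the first tissues that a circulating glucocorticoid meets, and DEX itself is a substrate of the efflux pump encoded by Abcb1a.

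The libraries differed in depth in the same direction as the groups. Control animals had 21252256 to 24086770 reads on genes, whereas the AS animals, mice 38, 42, 60 and 72, had 42489960, 52422858, 33263292 and 24908942. All 12 pyramidal neuron markers and all 12 GABAergic neuron markers on the marker lists were measured, as a cortical block should give. The DEX label was checked on Fkbp5, a chaperone gene that the receptor induces. Its normalized count was 2931 to 4038 in AS and 3447 to 4198 in control animals with DEX, above the 761 to 1088 of the 8 saline libraries of both classes. Tsc22d3, another induced gene, lay at 2360 to 2970 in AS and 2411 to 2917 in control animals with DEX, against 1122 to 1585 with saline.

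With DEX, 122 genes differed between AS and control animals at a Benjamini-Hochberg adjusted p under 0.1 (limma), which is 0.867% of the genes tested. They were mostly lower in AS, with 107 genes lower (0.76% of all genes) and 15 higher (0.107%). Among all genes the signs were balanced, with 49.8% lower in AS and a median log2 fold change of 0.00091. The 107 lower genes, of which 106 are protein coding, fell by a median of 0.76 on the log2 scale, with log2 fold changes from -0.24 to -1.98. Here and below, a fall or rise of a gene in AS is its difference from control animals, both with DEX. It is not a change from saline. The 15 higher genes had a median of 0.31, and 12 of them lay under 0.5. The 4 AS libraries did not overlap the 4 control libraries in 99 of the 107 lower and 12 of the 15 higher genes, where 4.02% of all genes lay lower and 3.07% higher without overlap (7.09% together). The calls rest on the same libraries and favour such separation, so it adds no support to them. The genes nearest the threshold had adjusted p of 0.0977 inside and 0.102 outside it.

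Genes of the vessel wall were prominent among the lower genes. The 5 lists of endothelial markers, mural cell markers, angiogenic signalling, the blood-brain barrier and the extracellular matrix held 94 measured genes, of which 26 were called lower and 0 higher. Of the 107 lower genes 77 were on no list of any kind. In these lists 8 of 15 endothelial markers, 4 of 11 mural markers, 10 of 31 angiogenic signalling genes, 8 of 19 blood-brain barrier genes and 3 of 28 matrix genes were called lower. The lists share some members. Their median log2 fold changes were -0.86, -0.67, -0.48, -0.43 and -0.38. All 15 endothelial and all 11 mural markers measured had a log2 fold change below 0.

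**Figure D1:**
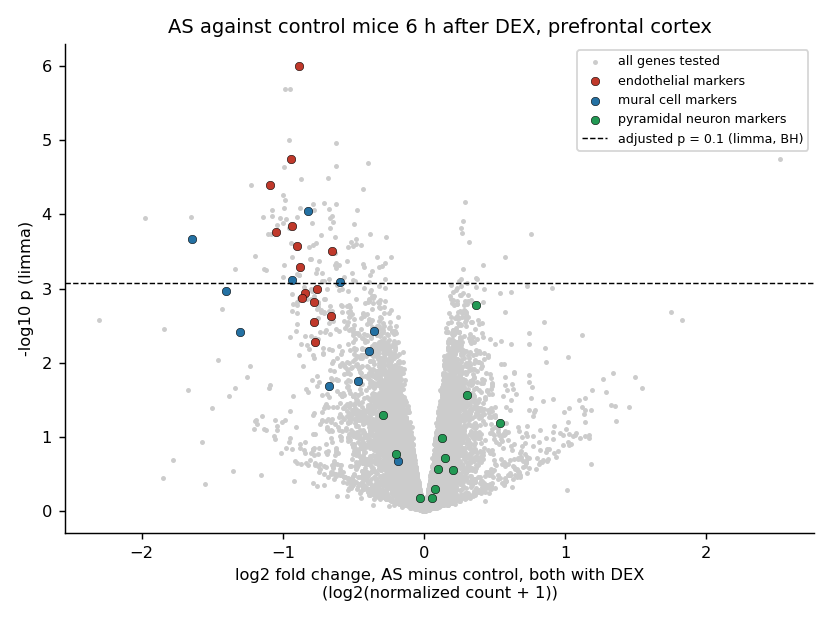
Log2 fold change of AS over control with DEX (horizontal, on log2(normalized count + 1)) against -log10 of the unadjusted limma p (vertical) for 14074 genes, with endothelial, mural cell and pyramidal neuron markers coloured and the adjusted p of 0.1 as a dashed line. All 15 endothelial markers lie left of 0 and 8 of them above the line, whereas 0 of 12 pyramidal neuron markers lie above it.

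The transport genes of the blood-brain barrier included the gene with the smallest p of the comparison. Slc2a1 (GRCm38 chromosome 4, 119108711 to 119137983), which encodes the glucose transporter GLUT1, had normalized counts of 2280, 2605, 2953 and 2494 in the AS libraries and 5572, 4497, 4266 and 4745 in the control libraries. The groups were far apart, and the log2 fold change was -0.88 with a standard error of 0.13 (adjusted p = 0.00801). Slc7a5, which carries large neutral amino acids, reached 2039 ± 119 (SD, n = 4) in AS and 2696 ± 248 in control animals (log2 fold change -0.40, adjusted p = 0.0317). Slco1a4, an organic anion transporter, reached 810 ± 234 and 1513 ± 181 (log2 fold change -0.93, adjusted p = 0.0458). The efflux pumps Abcb1a, Abcc4 and Abcg2 fell by 0.80, 0.82 and 0.43 on the log2 scale. Lsr, a protein of tricellular junctions, lay at 102 to 180 in AS and at 212 to 321 in control libraries (log2 fold change -0.98, adjusted p = 0.0436), and Cav1, the coat protein of caveolae, fell by 0.60. The other 11 measured genes of the list were not called.

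Among the lists, angiogenic signalling held the most called genes, 10 of 31. The share called was larger for endothelial markers (8 of 15), blood-brain barrier genes (8 of 19) and mural markers (4 of 11). The angiogenic list holds VEGF receptors, which drive vessel growth, angiopoietin receptors, which keep vessels quiescent, and Notch ligands and receptors, which set arterial fate. Notch4, the endothelial Notch receptor, had normalized counts of 229, 239, 234 and 219 in AS and 520, 459, 378 and 477 in control libraries (log2 fold change -0.98, SE 0.16, adjusted p = 0.00934). Tie1, an orphan partner of the angiopoietin receptor, had 148, 147, 222 and 145 in AS and 424, 356, 309 and 314 in control libraries (log2 fold change -1.09, SE 0.22, adjusted p = 0.0404). Mouse 60 gave the 222, the highest of the AS values, and still lay under every control. Kdr, the main VEGF receptor of endothelium, reached 217 ± 49.8 in AS and 446 ± 74.4 in control animals (log2 fold change -1.05, adjusted p = 0.049). Its paralog Flt1 fell by 0.90. Eng and Acvrl1, co-receptor and receptor for BMP9 on endothelium, fell by 0.94 (adjusted p = 0.0317) and 0.78. Robo4, an endothelial guidance receptor, had 117, 130, 239 and 115 in AS and 402, 322, 262 and 297 in control libraries (log2 fold change -1.14, SE 0.25, adjusted p = 0.0436). Jag1, a Notch ligand, fell by 0.79, and Mmrn2, an endothelial matrix protein, lay at 39.5 to 80.1 in AS and 81.0 to 141 in control libraries. The remaining 21 measured genes of the list were not called, among them Vegfa itself.

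Many endothelial promoters carry sites for ETS factors, a family that binds around a GGAA core. The promoters of the lower genes were searched for CNGGAAG on both strands, from 250 bases before to 50 after the RefSeq start on GRCm38.p6. Of the 107 lower genes 78 had a RefSeq promoter, 101 promoters in all, and 43.6% of these held the letters, against 31.9% of all 32851 promoters. The core of a glucocorticoid response element, ACANNNTGT, stood in 5.94% of them and in 6.85% of all promoters. The promoters of 4 vascular receptor genes are shown because they hold an ETS match. Those of Kdr, Eng, Slc2a1, Acta2 and Igfbp3, which were called lower as well, held 0 matches. They lie at chr17:34564045-34564344 (plus strand, Notch4), chr4:118489800-118490099 (minus strand, Tie1), chr9:37401722-37402021 (plus strand, Robo4) and chr5:147725962-147726261 (minus strand, Flt1). They are written along the gene, 5′ to 3′, and capitals mark the match or its reverse complement. The promoter of Notch4 also holds 1 match to ACANNNTGT, acattgtgt, left in lower case.
Notch4: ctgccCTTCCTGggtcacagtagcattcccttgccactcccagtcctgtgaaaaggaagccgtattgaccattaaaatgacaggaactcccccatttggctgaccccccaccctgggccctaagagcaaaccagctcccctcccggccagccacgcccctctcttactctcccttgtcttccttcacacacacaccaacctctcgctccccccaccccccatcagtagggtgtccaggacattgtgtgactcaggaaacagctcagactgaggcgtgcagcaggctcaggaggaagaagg
Tie1: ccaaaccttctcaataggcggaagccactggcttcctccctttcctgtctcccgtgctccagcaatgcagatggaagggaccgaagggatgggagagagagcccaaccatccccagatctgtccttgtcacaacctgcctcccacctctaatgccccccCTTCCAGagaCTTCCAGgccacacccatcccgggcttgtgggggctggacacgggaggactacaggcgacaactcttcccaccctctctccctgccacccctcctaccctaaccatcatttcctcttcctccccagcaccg
Robo4: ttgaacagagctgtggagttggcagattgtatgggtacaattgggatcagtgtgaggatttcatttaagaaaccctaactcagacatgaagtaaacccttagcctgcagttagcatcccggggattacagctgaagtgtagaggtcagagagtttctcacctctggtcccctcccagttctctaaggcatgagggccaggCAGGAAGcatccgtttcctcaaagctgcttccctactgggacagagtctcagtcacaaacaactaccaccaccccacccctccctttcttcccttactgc
Flt1: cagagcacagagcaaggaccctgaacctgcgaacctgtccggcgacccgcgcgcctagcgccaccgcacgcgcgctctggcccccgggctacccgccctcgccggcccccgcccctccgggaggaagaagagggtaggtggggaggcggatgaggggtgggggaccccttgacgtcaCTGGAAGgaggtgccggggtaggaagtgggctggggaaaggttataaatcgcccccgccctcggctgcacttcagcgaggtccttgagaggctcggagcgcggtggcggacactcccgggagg
A match is a description of the letters, and binding was not measured here.

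Vwf and Xdh were among the largest falls of AS against control animals with DEX. Vwf, the von Willebrand factor that tethers platelets, had normalized counts of 319, 282, 379 and 254 in AS and 1115, 1022, 713 and 1047 in control libraries (log2 fold change -1.65, SE 0.36, adjusted p = 0.0436). Xdh, xanthine dehydrogenase, had 293, 404, 474 and 486 against 1171, 1071, 732 and 885 (log2 fold change -1.22, adjusted p = 0.0404). In both genes the highest AS library lay well under the lowest control, mouse 112. Ptprb, the vascular phosphatase that restrains the angiopoietin receptor, reached 750 ± 73.9 in AS and 1621 ± 231 in control animals (log2 fold change -1.10, adjusted p = 0.049). Adgrf5, an adhesion receptor of vessel walls, reached 823 ± 127 and 1729 ± 192 (log2 fold change -1.08, adjusted p = 0.0436). Cd93, Ccm2l, Adcy4 and Paqr5 fell by 1.20, 1.14, 1.12 and 1.09, with adjusted p from 0.049 to 0.0803. Sema3g, a semaphorin and the 1 called gene among 41 axon guidance genes, lay at 82.9 to 148 in AS and 157 to 296 in control libraries.

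**Figure D2:**
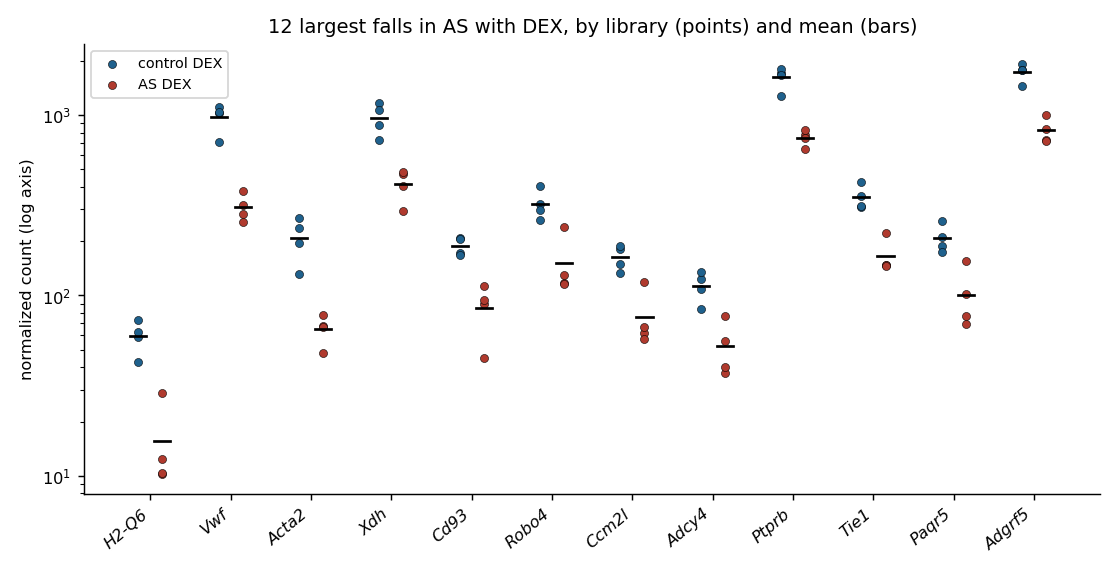
Normalized counts (vertical, log axis) of the 12 genes with the largest falls among called, named genes whose groups did not overlap, in the 4 control and 4 AS libraries with DEX, with points for libraries and bars for means. In each gene every AS point lies below every control point, and Vwf runs from 254 to 379 in AS and from 713 to 1115 in control animals.

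The mural and matrix genes moved the same way. Acta2, smooth muscle actin, had normalized counts of 67.5, 47.7, 77.6 and 66.8 in AS and 270, 237, 131 and 196 in control libraries (log2 fold change -1.64, SE 0.38, adjusted p = 0.0526). Notch3, the Notch receptor of mural cells, reached 233 ± 23.7 in AS and 415 ± 69.8 in control animals (log2 fold change -0.82, adjusted p = 0.0436). Rgs5, a pericyte regulator of G-protein signalling, reached 1674 ± 341 and 3187 ± 570 (log2 fold change -0.93, adjusted p = 0.0938), and Vtn fell by 0.60. Among matrix genes Hspg2, which encodes perlecan, lay at 200 to 254 in AS and 381 to 548 in control libraries (log2 fold change -1.02, adjusted p = 0.0436). The laminin chains Lama5 and Lamb2 fell by 0.77 and 0.65. Ltbp4, which stores latent TGF-beta in the matrix, reached 1988 ± 154 in AS and 3183 ± 445 in control animals (log2 fold change -0.67, adjusted p = 0.0436). All 28 matrix genes measured had a log2 fold change below 0, but 25 of them were not called.

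Most called genes were on no list, and few members of the other lists were called. Of 14 measured MHC genes, which present peptides to T cells, H2-Q6 and H2-Q4 were called lower. All 14 had a log2 fold change below 0, with a median of -0.33. Their mean log2 level, centred on the 24 libraries, ran from -0.61 to -0.29 in AS and from -0.23 to 0.31 in control libraries, without overlap. H2-Q6 had normalized counts of 12.5, 10.3, 28.9 and 10.4 in AS and 58.8, 73.5, 42.9 and 62.7 in control libraries (log2 fold change -1.98, SE 0.43, adjusted p = 0.0436), and H2-Q4 reached 82.7 ± 14.1 and 171 ± 26.9 (log2 fold change -1.04). The genes of this family are near copies of each other, so their reads may be split between them. Hspb1, a small heat shock protein, was the 1 called gene of 20 heat shock genes, at 69.9 to 109 in AS and 123 to 219 in control libraries (log2 fold change -0.78, adjusted p = 0.0561). The rest of that list leaned the other way, with 16 of 20 genes above 0 and a median of 0.17. At an unadjusted p under 0.05, where 13.4% of all genes passed, 8 of the 20 were higher and 2 lower, 6 were higher without overlap, and edgeR called 1 and DESeq2 called 7. Stra6, the retinol transporter receptor and on no list, lay at 174 to 215 in AS and 333 to 494 in control libraries (log2 fold change -0.99, adjusted p = 0.0436).

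The 15 higher genes had log2 fold changes from 0.25 to 2.52. Chgb, chromogranin B of dense-core vesicles, had normalized counts of 13928, 12759, 13191 and 14051 in AS and 10678, 11212, 12281 and 10506 in control libraries (log2 fold change 0.27, SE 0.06, adjusted p = 0.0451). It was the most abundant of the 15. Eif5b, a translation initiation factor, reached 4000 ± 284 in AS and 3270 ± 57.2 in control animals (log2 fold change 0.29, adjusted p = 0.0436), and Ssb, the La protein that binds new RNA polymerase III transcripts, reached 4336 ± 402 and 3475 ± 172 (log2 fold change 0.32). Smc1a, a cohesin subunit, rose by 0.26, the splicing-related genes Snw1 and Htatsf1 by 0.25 and 0.27, and Aplf, a DNA repair factor, by 0.41. Aplf lay at 162 to 194 in AS and at 122 to 145 in control libraries. The noncoding Gm49207 is rare, with 5.42 to 15.7 normalized counts in AS and 0 to 2.41 in control libraries. Its log2 fold change of 2.52 (adjusted p = 0.0317) was the largest of the 122 in either direction and rests on these low counts.

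In 35 further lists 0 of 738 measured genes were called by limma. At an unadjusted p under 0.05, 95 of them passed (55 higher and 40 lower), where 13.4% of all genes did, and edgeR called 1 and DESeq2 called 14. Glucocorticoid receptor targets were among these lists, with 0 of 24 called, 1 at an unadjusted p under 0.05, 1 by edgeR and 1 by DESeq2, and a median log2 fold change of -0.05. The receptor gene Nr3c1 lay at 2137 to 2549 in AS and 1894 to 2470 in control libraries, which overlap (log2 fold change 0.10, adjusted p = 0.692). Median log2 fold changes were 0.11 for pyramidal neuron, -0.03 for GABAergic neuron, -0.12 for astrocyte and -0.05 for microglia markers. All 12 oligodendrocyte markers lay above 0, with a median of 0.29, and 0 were called, with 5 at an unadjusted p under 0.05 and 0 by edgeR or DESeq2. Nuclear respiratory chain genes had a median of 0.17 and 79 of 82 above 0, with 19 at an unadjusted p under 0.05 and 0 called by limma, edgeR or DESeq2.

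Marker sums by library placed the vascular difference among other differences of the blocks. The mean log2 level of the endothelial markers, centred on the 24 libraries, was -0.64, -0.66, -0.03 and -0.67 in AS mice 38, 42, 60 and 72 and 0.66, 0.28, 0.12 and 0.36 in control mice 101, 108, 112 and 122. For mural markers it ran from -0.56 to -0.38 in AS and from 0.01 to 0.62 in control libraries. The groups did not overlap in either list. Leptomeningeal markers, from the cells that cover the cortex, ran from -0.40 to 0.23 in AS and from -0.12 to 0.59 in control libraries, with 11 of 14 markers measured and Col3a1 not in the table. Border macrophage markers, with 4 of 8 measured, ran from -0.998 to 0.34 and from -0.10 to 0.53, and blood markers, with 5 of 9 measured, from -0.78 to 0.80 and from -0.44 to 1.18. These 3 lists overlapped between the groups, all their measured members had a log2 fold change below 0, and their part in the result was not tested. Olfactory bulb markers, all 9 of which were measured, spread from -1.44 to 0.89 in AS and from -0.68 to 1.72 in control libraries. They overlapped too, all 9 had a log2 fold change below 0 (median -0.61), and their part was not tested either.

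**Figure D3:**
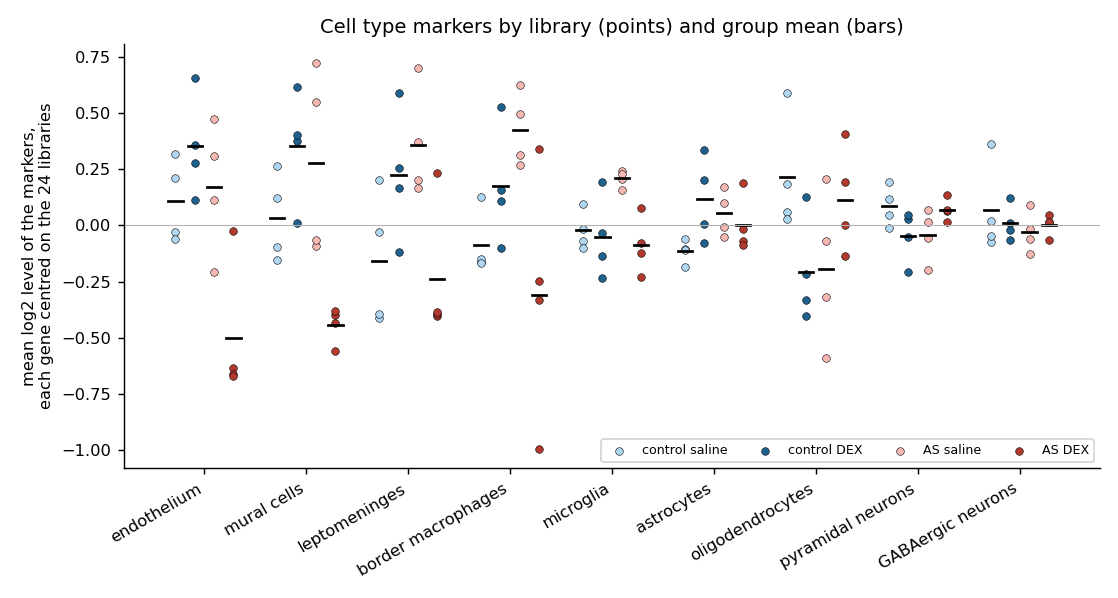
Mean log2 level of the markers of each cell type (vertical, each gene centred on the 24 libraries) in control and AS animals with saline or DEX, with points for libraries and bars for group means. With DEX, AS libraries lie below control libraries for endothelium and mural cells without overlap, whereas with saline the 2 groups overlap in both.

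Single libraries had a large part in the number of calls. Control mouse 101 was the highest control in 84 of the 107 lower genes and mouse 112 the lowest in 87, and AS mouse 60 was the highest AS library in 66. Without control mouse 101 or 122 only 3 genes were called, 15 without 108 and 403 without 112. Without AS mouse 38, 42, 60 or 72 the numbers were 13, 5, 149 and 38. Of the 42 named genes that were called, 41 lost the call without control mouse 101 or 122 or AS mouse 42, 39 without control mouse 108, 37 without AS mouse 38 and 31 without AS mouse 72. Slc2a1 was called without any 1 of the 8 libraries, with log2 fold changes from -0.81 to -0.95 and an adjusted p of at most 0.0786. In each of these fits all 122 genes kept their sign, which their choice by this comparison largely fixes, and the median of the 107 lower genes stayed between -0.68 and -0.83.

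**Figure D4:**
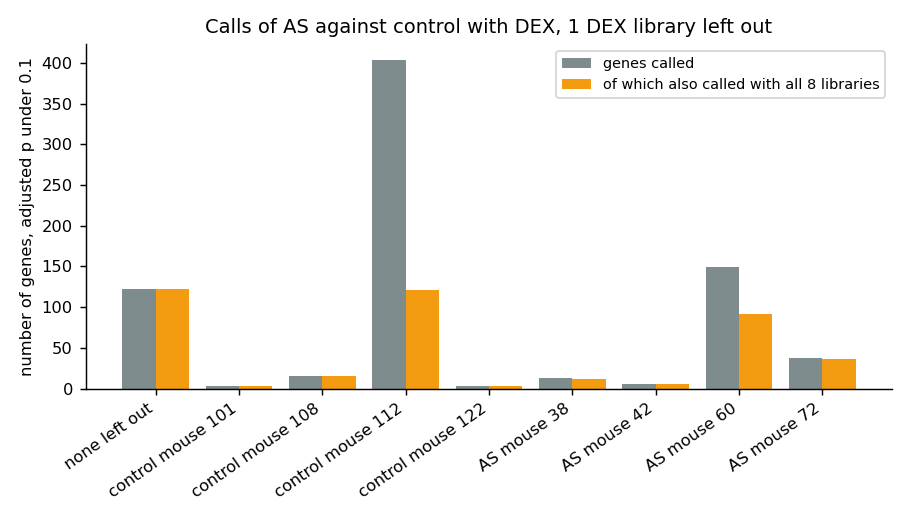
Number of genes called (vertical) for AS against control with DEX with all libraries and with each of the 8 DEX libraries left out (horizontal), and how many of them were among the 122 genes called with all libraries. The counts run from 3 without control mouse 101 or 122 to 403 without control mouse 112.

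Depth moved with the groups as well. With the log2 library size as a covariate limma called 0 genes, with 937 at an unadjusted p under 0.05, and the median log2 fold change of the 107 lower genes was -0.64. Slc2a1 then had a log2 fold change of -0.80 (adjusted p = 0.164). On reads thinned to the smallest library edgeR called 135 genes, of which 106 were among the 122.

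The same comparison in saline-treated animals shares no library with the one above. With saline, 22 genes (0.156%) were called between AS and control animals, 15 of them lower (0.107%) and mostly ribosomal or other processed pseudogenes, and 0 of the 122 genes called with DEX were among them. Of the 107 genes lower with DEX, 34 lay below 0 and 73 above 0 with saline, with a median log2 fold change of 0.06 and a range from -0.41 to 0.48. Across the 14074 genes the log2 fold changes with DEX and with saline had a Pearson r of -0.08 and a Spearman rho of -0.02, given as a description, since genes are not independent replicates. Leptomeningeal and border macrophage markers had medians of 0.56 and 0.51 with saline and of -0.48 and -0.49 with DEX.

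**Figure D5:**
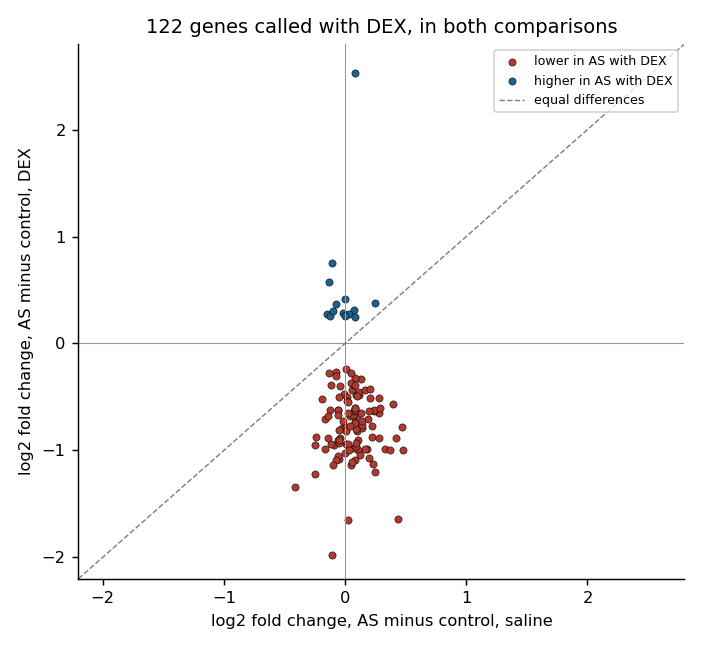
Log2 fold change of AS over control with saline (horizontal) and with DEX (vertical) for the 122 genes called with DEX, with the line of equal differences dashed. The 107 lower genes spread on both sides of 0 with saline, from -0.41 to 0.48.

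The difference between the effects with DEX and with saline was called in 49 genes (0.348%), with 23 negative (0.163%) and 26 positive (0.185%) differences. They included 12 of the 107 lower and 2 of the 15 higher genes. The interaction holds the DEX difference that chose these genes, which favours such calls, so the 2 counts are a description. The number was 1 when genes with means under 100 were left out and 7 with library size as a covariate. It moved by over 1.5 times without any 1 library of the 4 groups, from 4 (without AS mouse 42 with DEX, or without control mouse 117 or AS mouse 8 or 40 with saline) to 686 without AS mouse 44 with saline. Slc2a1 had a difference of -0.85 (adjusted p = 0.0744): its saline libraries lay at 2459 to 3140 in control and 2091 to 2972 in AS animals, so that of these 4 groups only the DEX-treated controls, from 4266 upwards, stood apart. Lamb2 had a difference of -0.93 (adjusted p = 0.0744) and Hspb1 of -1.25 (adjusted p = 0.0711). Stra6, Slc52a3 and Mmrn2 had differences of -1.32, -1.37 and -1.48. Ppic and H2-Eb1 had -1.60 and -1.53 without being called with DEX. Chgb and Smc1a had differences of 0.42 and 0.38. The 5 highest differences, from 3.12 to 3.40, belonged to pseudogenes (Gm13339, Rpl34-ps1, Rpl19-ps7, Rpl36-ps2 and Rpl17-ps8), which were high in the saline-treated controls and are uncertain because their reads match other genes. Rpl34-ps1 lay at 31.0 to 51.7 there and at 13.7 ± 4.43 and 7.01 ± 1.98 in AS and control animals with DEX.

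The means of the 4 groups showed several patterns among the 107 lower genes. Their choice rests on both DEX groups, so that the counts are a description. In 69 genes the DEX-treated AS mean lay below both saline means and the DEX-treated control mean above both. In 22 genes the AS mean lay below both saline means, but the control mean did not lie above both. In 16 genes the control mean lay above both, but the AS mean did not lie below both. Xdh was of the last kind, with means of 336 in control and 284 in AS animals with saline and of 965 and 414 with DEX. Its DEX-treated AS mean thus lay above both saline means as well. Notch3 was among the 22, at 431, 483, 415 and 233 in the same order, with both DEX means below both saline means. Eng had means of 764, 775, 832 and 434 in the same order, with the DEX-treated AS animals apart.

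PS animals with DEX are set beside these values, and they were compared with the same control libraries. There, 28 genes (0.199%) were called, 8 of them lower (0.0568%). Slc2a1 was called lower, at 2560 to 3908 in PS (log2 fold change -0.62, limma adjusted p = 0.0731). Vwf lay at 173 to 642 in PS (-1.33) and Eng at 422 to 769 (-0.66). Of the 107 genes lower in AS, 4 were also called lower in PS, namely Slc2a1, Igfbp3, Stra6 and Tgfb1. The 107 genes had a median of -0.48 in PS and -0.76 in AS. In 101 of them the PS mean lay between the AS and control means. The 107 genes were chosen by the difference of AS from these same controls. That choice favours a low AS median, PS values below control and PS means in between, so these numbers are a description. List medians in PS were -0.61 for endothelial markers, -0.44 for mural markers, -0.41 for angiogenic, -0.31 for blood-brain barrier and -0.29 for matrix genes. Between AS and PS animals with DEX limma called 0 genes, with 580 at an unadjusted p under 0.05 (4.12%), and no other tool was run.

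Genes chosen in libraries outside the comparison were also followed. Of 386 genes that DEX raised in PS animals (2.74% of all genes), 8 were called lower and 0 higher in AS against control animals with DEX, where 0.76% of all genes were called lower. Their median log2 fold change was -0.03, with 232 of the 386 below 0, where 49.8% of all genes were. The 369 genes (2.62%) that DEX lowered in PS had a median of -0.09, with 270 below 0, 6 called lower and 0 higher. The 101 genes (0.718%) higher in PS than in control animals with saline had a median of 0.12, with 83 above 0 and 1 called higher. The 112 lower genes (0.796%) had a median of 0.02, with 64 above 0 and 0 called. These medians were small beside the -0.76 of the 107 lower genes, which were themselves chosen by this comparison.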

How the data were processed

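Bulk RNA-seq libraries of the PFC came from 24 mice (6 groups of 4, 1 library each). Groups came from the library names in the labels, and the AS and PS names from the paper. Poly(A) RNA was made into strand-specific libraries and sequenced in pairs. Trimming by the authors used fastp 0.20.1, alignment to mm10 (GRCm38) HISAT2 2.2.1, and counting over the genes of GENCODE vM22 featureCounts (Subread 2.0), after which DESeq2 1.36.0 gave the size factors. Each deposited signal value is a read count of a gene over the size factor of its library, and 100% of the values were whole reads within a tolerance of 0.01 read. Depth was 21121869 to 59439645 reads on genes. Of the genes, 781 had under 10 reads in at least 1 of the 8 libraries compared and are less precise. Gene coordinates came from the same deposit. The deposited fold changes, p-values and adjusted p-values of the authors' own comparisons (stress, DEX and interaction) were not used.

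The test was that of limma 3.58.1 (R 4.3.3; lmFit, then eBayes with the trend option) on the scale log2(normalized count + 1), with 1 mean per group over all 24 libraries and 14074 genes. Fold changes on this scale understate those of low genes. Values are means ± SD (n = 4), with adjusted p from Benjamini-Hochberg over all genes. Replicates are separate mice, whose libraries differed by more than sampling noise (chi-square per gene of 5.69 to 80.9). An exact permutation test of 4 against 4 cannot go below p = 0.0286 and was not used. Alternatives were a pseudocount of 8, a mean of at least 100, at least 10 reads in every library, only the groups compared, quantile and TMM normalization, library size (log2) as covariate, edgeR 4.0.16 (also on thinned reads), DESeq2 1.42.0 and each library left out. The limma, edgeR and DESeq2 fits were tested on simulated data.

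The comparison and the 43 gene lists were chosen with earlier results of these data known. Named genes were the 12 largest rises and falls among called genes whose groups did not overlap (with pseudogenes and unnamed models mostly left out, and a mean of at least 20 in the higher group), the 6 smallest p at a mean of at least 1000, the DEX check genes, up to 3 called members each way of each list or its 2 highest genes, and the 5 highest and lowest interactions. Some genes are not reported here. Notch4, Flt1, Acvrl1, Jag1, Abcb1a, Abcc4, Abcg2, Cav1, Vtn, Vegfa and Gm49207 were named after their values were seen.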

Additional observations from a re-analysis of the deposited data

Results flagged for a closer look

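In groups of 4 libraries, a sample stood apart where its gap to the nearest other, as a share of the group's range, was 0.829 or more. Chance gives this in about 1 in 20 groups, so that over many genes and lists a number of such gaps would arise by chance alone. Among AS animals with DEX this held for Tie1 (0.968), Robo4 (0.88), Ccm2l (0.848) and H2-Q6 (0.884), where mouse 60 was the highest, and for the endothelial marker mean (0.943), also highest in mouse 60. All these values of mouse 60 for single genes stayed under the lowest control. The leptomeningeal marker mean (0.969) was highest in mouse 72. Other gaps in AS were those of Calb2 (0.894), Klf9 (0.847), Hspa8 (0.958), Gria2 (0.849), Adcyap1r1 (0.866) and Atp5a1 (0.92), and of the means of heat shock (0.856), synaptic vesicle (0.846), mitochondrially encoded (0.83) and protocadherin genes (0.864). Among control animals with DEX they were Nrgn (0.893), Mbp (0.953), Ppp1r1b (0.829), Tef (0.858), Rpl31-ps8 (0.904), Rpl17-ps8 (0.843) and the means of glutamate receptor (0.864) and axon guidance genes (0.869).

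The effect of AS against control animals with DEX differed from that with saline, by limma's interaction at an adjusted p under 0.1, in Chgb (0.419), Smc1a (0.381), Slc2a1 (-0.846), Lyve1 (-1.27), Lamb2 (-0.93), Hspb1 (-1.25), Ppic (-1.6), H2-Eb1 (-1.53), Mmrn2 (-1.48), Slc52a3 (-1.37) and Stra6 (-1.32), given as differences of log2 fold changes. Lyve1, a marker of border macrophages and lymphatic endothelium, lay at 31.0 to 38.5 in control and 49.0 to 63.3 in AS animals with saline, and at 95.1 to 108 and 47.9 to 101 with DEX. The pseudogenes Gm13339 (3.12), Rpl34-ps1 (3.17), Rpl19-ps7 (3.2), Rpl36-ps2 (3.21) and Rpl17-ps8 (3.4) had the highest differences.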

How the results depend on the processing

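No paired analysis was possible because no mouse number recurs between the groups. Over 34 alternatives the sign of all 122 called genes that were tested was the same, which their choice largely fixes, but their number was not. AS against control with DEX gave 122 genes (15 higher and 107 lower), 0 (0 and 0) with library size as a covariate, 417 (121 and 296) by DESeq2, 2 higher with only the groups compared, and 3 to 403 (0 to 116 higher, 3 to 287 lower) when 1 library was left out. Libraries outside the comparison also moved it, through the shared estimate of the spread: 297 without PS mouse 34 with DEX and 325 without AS mouse 44 with saline. The saline comparison gave 22 genes, 5 at a mean of at least 100, 9 with at least 10 reads in every library, 99 by DESeq2 and 12 to 49 with 1 library left out. The interaction gave 49 genes, 1 at a mean of at least 100, 82 with only the groups compared, 31 with quantile normalization, 7 with library size, 77 by edgeR, 439 by DESeq2 and 4 to 686 with 1 library left out. The median of the mural markers was -0.47 with library size. Except where given, the causes were not tested. Of the 77 named genes that were not called, 33 changed sign under at least 1 alternative, each by less than 1 SD between replicates. Depth limits genes with few reads, such as Gm49207 and the pseudogenes.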

Other observations

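Further genes among the 107 lower ones, chosen after their values were seen and on no list, are given here. Only some of them are known from vessels and their signals. Acacb, an acetyl-CoA carboxylase that checks fatty acid oxidation, had normalized counts of 161, 161, 144 and 147 in AS and 336, 281, 266 and 309 in control libraries with DEX (log2 fold change -0.95, SE 0.15, adjusted p = 0.00934). Igfbp3, a carrier of insulin-like growth factors, had 287, 302, 353 and 315 against 582, 476, 410 and 480 (log2 fold change -0.62, adjusted p = 0.0317). Both groups were separate in each gene. Atp10a, a phospholipid flippase, and Adgrl4, an endothelial adhesion receptor, fell by 0.95 and 0.99. Edn1, which encodes the vasoconstrictor endothelin 1, lay at 45.2 to 78.4 in AS and 93.0 to 119 in control libraries (log2 fold change -0.88, adjusted p = 0.0889), and Piezo1, a channel that senses flow, fell by 0.65. Calcrl and Ramp2, which together form an adrenomedullin receptor, fell by 0.57 and 0.51, and their differences from the saline effect were also called (adjusted p = 0.0744 and 0.0954).

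Of transcription factors, Epas1, the hypoxia-inducible factor of endothelium, lay at 3993 to 4506 in AS and 4785 to 6872 in control libraries (log2 fold change -0.50, adjusted p = 0.0451). Foxq1 fell by 0.94. Tgfb1 and its receptor Tgfbr2 fell by 0.48 and 0.49, with adjusted p of 0.0555 and 0.0938. Among the 15 higher genes S1pr5, a sphingosine-1-phosphate receptor of oligodendrocytes, rose by 0.57 (adjusted p = 0.0702) with the groups touching, at 197.2 to 304 in AS and 115 to 197.8 in control libraries.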
